A study of Mus musculus with 12 samples.

Results

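The Ifi200 genes form a family on mouse chromosome 1 whose proteins carry a pyrin domain, a DNA-binding HIN domain, or both. The account covers 8 of them, Ifi203, Ifi204, Ifi207, Ifi209, Ifi211, Ifi213, Mndal and Aim2, out of 21965 genes in a table of raw read counts. They were picked by name, with no threshold, but with earlier results of these libraries known, so the p-values given for them place each gene among all genes and are not independent evidence for the choice. A further 5 family genes with an entry in the table, Ifi202b, Ifi205, Ifi206, Ifi208 and Ifi214, are given beside them.

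The study asked how loss of the Nox2 NADPH oxidase changes the gingival response to a silk thread tied around a maxillary molar, a model of periodontitis. Sequencing of poly(A) RNA from gingiva gave 12 libraries, 3 in each of 4 groups: C57BL/6 wildtype mice without a thread (WT naive) or 8 days after it was tied (WT ligated), and Cybb-/- mice, which lack the catalytic subunit of Nox2, without it (CybbKO naive) or 8 days after (CybbKO ligated). All mice were younger than 12 weeks and the libraries held between 27958819 and 42613423 counted reads. The WT mice were bought and the CybbKO line was given by another laboratory, so genotype and colony of origin cannot be told apart.

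Cybb itself was higher, not lower, in the libraries labelled CybbKO, at 41.6 to 56.3 CPM (counts scaled to library size) in naive and 51.1 to 63.7 CPM in ligated tissue, against 4.19 to 5.60 and 8.41 to 15.2 CPM in WT, so every direction between genotypes below rests on the labels. Gingival epithelium markers (Krt5, Krt14 and 5 others) summed to between 46170 and 82080 CPM in each library. WT naive replicate 3 stood apart from the other libraries on the second principal component (61.53), and WT naive replicate 1 lay at its other end (-41.05). That replicate 1 also read higher in some interferon-induced genes. Isg15 was 17.6 RPKM there against 3.97 and 2.07 in WT naive replicates 2 and 3, and Gbp2 was 13.7 against 3.37 and 3.29. Several values are also given without either library.

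Several of these proteins bind DNA in the cytosol or nucleus. Aim2 is the best known: on double-stranded DNA it recruits the adaptor Pycard (ASC) and caspase-1 into an inflammasome that matures interleukin-1β and interleukin-18. Ifi204 is regarded as a mouse counterpart of human IFI16, which signals through STING, the protein encoded by Tmem173, to induce type I interferon. Most family genes are themselves induced by interferon, through a promoter element called the interferon-stimulated response element (ISRE).

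The 13 genes lay in 680.9 kb of chromosome 1 on GRCm38, from 173350879 to 174031810 in the GENCODE M21 annotation. Aim2 (ENSMUSG00000037860, plus strand) was at the left end, followed by Ifi213 (ENSMUSG00000073491, minus strand), Ifi209 (ENSMUSG00000043263, plus), Ifi207 (ENSMUSG00000073490, minus), Ifi204 (ENSMUSG00000073489, minus), Mndal (ENSMUSG00000090272, minus), Ifi211 (ENSMUSG00000026536, minus) and Ifi203 (ENSMUSG00000039997, minus). All 13 are annotated as protein-coding, and the only other gene of the table in this stretch was Cadm3, which overlaps Aim2 on the opposite strand.

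The copies are alike enough in places that a read could match another copy as well. How such reads were treated is not stated, so they could be left out or counted to another copy. Of all 75-base windows of its transcripts, 63.6% of those of Ifi211 also occurred in another gene, and 40.6% of all its windows occurred in Ifi205. The share was 23.1% for Ifi209 (with Ifi214), 13.2% for Ifi204, 11.1% for Mndal, 8.07% for Ifi213, 5.71% for Ifi203 and 2.80% for Ifi207. Aim2 and Ifi202b shared none. The level of Ifi211 is therefore uncertain, and those of Ifi209, Ifi204 and Mndal less so.

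RefSeq promoter windows on GRCm38.p6, from 250 bases before to 50 after a transcription start, were on hand for 7 of the 8 genes, all but Ifi204. The ISRE core, read as GAAA, any 2 bases and GAAA again, was sought on both strands. It was found for 5 of the 7, Ifi203, Ifi207, Ifi211, Ifi213 and Mndal. Counted by window, 6 of the 9 windows of these genes held it, against 3.44% of 32851 windows of the same length over all genes. The letters TTCNNNGAA of the gamma-activated site (GAS), which can overlap an ISRE, were in 0 of the members' 9 windows and in 8.3% of all windows. A match describes the letters only. The stretches below show how the copies resemble each other around this element, each read on the strand of its gene with 20 bases before and 30 after the 10 bases in capitals, which mark the ISRE core or, in Ifi209, the aligned bases.
Ifi213: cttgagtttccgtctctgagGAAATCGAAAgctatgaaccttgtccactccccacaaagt
Ifi209: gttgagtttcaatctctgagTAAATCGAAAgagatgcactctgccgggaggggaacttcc
Ifi214: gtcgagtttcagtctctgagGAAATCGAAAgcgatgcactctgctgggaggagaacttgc
Mndal: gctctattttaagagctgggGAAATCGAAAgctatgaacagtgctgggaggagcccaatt
Ifi207: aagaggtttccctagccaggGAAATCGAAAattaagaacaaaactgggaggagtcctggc
Ifi211: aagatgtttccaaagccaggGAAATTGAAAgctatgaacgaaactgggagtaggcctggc
Ifi205: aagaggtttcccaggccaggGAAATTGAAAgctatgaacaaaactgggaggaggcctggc

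These stretches lie at chr1:173599306-173599365 (minus strand, Ifi213), chr1:173630760-173630819 (plus, Ifi209), chr1:173535997-173536056 (minus, Ifi214), chr1:173880184-173880243 (minus, Mndal), chr1:173741811-173741870 (minus, Ifi207), chr1:173913044-173913103 (minus, Ifi211) and chr1:174031850-174031909 (minus, Ifi205). The stretch of Ifi203, at chr1:173942488-173942547 on the minus strand, equals that of Mndal in all 60 bases, and the stretch of Ifi208 equals that of Ifi213 in all 60. Ifi206 differs from Ifi213 at 1 of the 60 bases, Ifi211 matches Ifi205 in 55 and Ifi207 matches Ifi205 in 53, whereas Ifi213 and Ifi207 match in 27. The capitals begin 35 to 73 bases before the annotated start in the 5 members that hold the core. The stretch of Ifi209 was most like that of Ifi214, without gaps in 53 of 60 bases, and among the members it was most like Mndal and Ifi203 (37 of 60). It lacked the core by a G1T difference from Ifi214, counting from 1 at the 5′ end of the capitals and giving the Ifi214 base before the Ifi209 base. The windows of Aim2 and Ifi202b also held no ISRE core, and that of Ifi202b held 1 GAS match.

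Levels were compared between genes as CPM per kilobase of merged exons (RPKM), with libraries scaled by the trimmed mean of M-values. Ifi204 was the highest of the 8 in every group and made up between 56.0% and 62.9% of their summed level in each library. Mndal followed, and the ranges of Ifi204 and Mndal over 3 libraries did not overlap in any group. In naive tissue Ifi211 came next, at 3.85 ± 0.133 RPKM (SD, n = 3) in WT. In ligated tissue Ifi209 was level with it, at 3.92 ± 0.969 RPKM (SD, n = 3) against 3.13 ± 2.06 in WT, with overlapping ranges.

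Ifi203 and Ifi207 stood between 0.739 and 3.08 RPKM in all libraries, and their ranges overlapped in each of the 4 groups. Aim2 was lower, at 0.479 to 1.49 RPKM, although its protein is the family's best-characterised sensor. Ifi213 was by far the lowest member, with 6 to 76 reads per library. It passed the filter on low counts through all 3 libraries in 3 of the 4 groups, and not only in the group where it was highest. The highest family gene lay outside the 8: Ifi202b, whose protein has HIN domains without a pyrin domain and is known as an inhibitor of Aim2, was above Ifi204 in every group, at 62.9 ± 5.75 to 85.5 ± 30.2 RPKM (SD, n = 3).

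**Figure D1:**
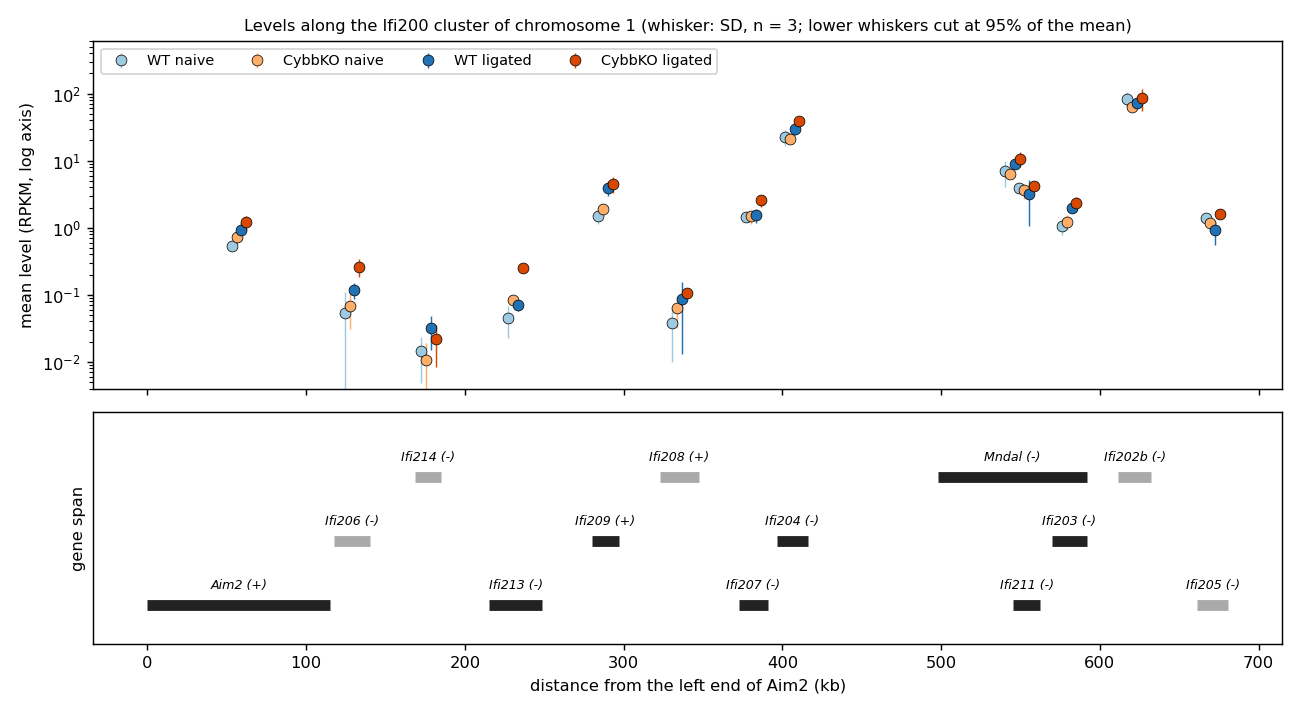
Mean level of 13 Ifi200 family genes (RPKM, log axis) in the 4 groups, n = 3 libraries each with SD whiskers, above the span and strand of each gene in kb from the left end of Aim2; members are dark, other family genes grey. Ifi204 and Ifi202b stand highest, and Ifi213, Ifi206, Ifi208 and Ifi214 lie at or below 0.333 RPKM in every library.

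In WT tissue the ligature went with a higher level of 1 of the 8 genes by edgeR's quasi-likelihood test, Ifi209, with 2.31% of 15046 tested genes called higher and 3.20% called in either direction. In tissue labelled CybbKO 4 of the 8 were called higher, Ifi213, Ifi209, Ifi203 and Ifi204, with 9.95% of all genes called higher. None was called lower in either. The median log2 fold change of the 8 was 0.52 in WT and 0.84 in CybbKO, against -0.03 over all tested genes in both. The WT median was 0.34 without WT naive replicate 3 and 0.73 without WT naive replicate 1. Without that replicate 1, 6 of the 8 had an unadjusted p under 0.05 by edgeR in WT (3017 of all genes did). With all libraries 3 of the 8 did (2999 of all genes). The WT and CybbKO comparisons share no libraries, but whether the response to the thread differed between genotypes was tested directly and is given below.

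Ifi209 was the member with the clearest change after ligature. Its level was 1.76, 1.59 and 1.10 RPKM in WT naive and 3.02, 3.81 and 4.95 in WT ligated, so the groups did not overlap. That was a 2.64-fold difference (log2 1.40, SE 0.25, adjusted p = 0.0192 by edgeR). In the libraries labelled CybbKO it was 1.69, 1.93 and 2.17 RPKM in naive and 3.94, 3.63 and 5.81 in ligated tissue. These did not overlap either, and the difference was 2.31-fold (log2 1.21, SE 0.25, adjusted p = 0.00993 by edgeR). The call in WT was lost without WT ligated replicate 2 or 3 or WT naive replicate 2, while the log2 fold change stayed between 1.20 and 1.60.

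Ifi204, the most abundant member, showed an increase that passed the test in the CybbKO comparison. Its level was 20.2, 19.8 and 23.6 RPKM in CybbKO naive and 35.0, 36.1 and 45.4 in CybbKO ligated libraries. These sets were separate, at 1.83-fold (log2 0.87, SE 0.19, adjusted p = 0.0137 by edgeR). In WT it was 28.4, 21.9 and 17.0 RPKM naive and 24.3, 30.5 and 35.4 ligated. Here the sets overlapped, because WT naive replicate 1 was above WT ligated replicate 1, and the log2 fold change of 0.42 (SE 0.19) did not pass the test (adjusted p = 0.252 by edgeR). It was 0.26 without WT naive replicate 3 and 0.63 without WT naive replicate 1.

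Ifi213 was called in CybbKO at low counts. It had 17, 22 and 21 reads in CybbKO naive and 56, 73 and 76 in CybbKO ligated libraries, or 0.0717, 0.0892 and 0.0936 against 0.214, 0.285 and 0.253 RPKM. All ligated libraries were higher, by 2.95-fold (log2 1.56, SE 0.34, adjusted p = 0.0119 by edgeR). In WT it had 16, 7 and 6 reads naive and 15, 20 and 21 ligated, which overlapped (log2 0.62, SE 0.37, adjusted p = 0.385 by edgeR).

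Ifi203 stood at 0.882, 1.49 and 1.29 RPKM in CybbKO naive and 2.53, 1.71 and 2.67 in CybbKO ligated libraries. The sets were separate, at log2 0.92 (SE 0.26, adjusted p = 0.0395 by edgeR). In WT they were separate too, with 1.24, 1.24 and 0.739 RPKM naive and 1.64, 2.02 and 2.21 ligated, at log2 0.86 (SE 0.26), which did not pass the test (adjusted p = 0.0943 by edgeR, 0.0253 by DESeq2, which called 5.66% of all genes higher there).

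The 4 calls in CybbKO depended on single libraries in part. Only Ifi209 remained called without CybbKO naive replicate 1, and Ifi209 and Ifi213 without CybbKO ligated replicate 3, as the genes called in all fell from 1954 to 1178 and 854. Without CybbKO ligated replicate 2, which lay nearer to the WT ligated libraries than the other 2 on the first principal component, 6 members were called, and 2949 genes in all. DESeq2 also called 6, adding Ifi207 and Mndal, with 12.3% of all genes called higher.

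Aim2 was higher in every ligated WT library than in any naive one, at 0.565, 0.578 and 0.479 RPKM naive and 0.640, 0.919 and 1.21 ligated. The log2 fold change of 0.77 (SE 0.29) did not pass the test over all genes (adjusted p = 0.170 by edgeR). In CybbKO it was 0.602, 0.888 and 0.654 RPKM naive and 1.27, 0.879 and 1.49 ligated. These overlapped in replicate 2 of both groups, at log2 0.76 (SE 0.29, adjusted p = 0.107 by edgeR).

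Ifi207 and Mndal showed differences of similar size in CybbKO without a call by edgeR. Ifi207 was 1.35, 1.84 and 1.22 RPKM naive and 2.57, 2.03 and 3.08 ligated (log2 0.80, SE 0.24, adjusted p = 0.0520). In WT its levels overlapped widely, at 1.61, 1.48 and 1.24 RPKM naive and 1.15, 1.62 and 1.86 ligated (log2 0.10, SE 0.25). Mndal was 5.32, 6.59 and 7.10 RPKM in CybbKO naive and 9.18, 13.9 and 9.01 in CybbKO ligated libraries, which were separate (log2 0.76, SE 0.27, adjusted p = 0.0949 by edgeR). In WT it was 9.59, 7.17 and 3.97 RPKM naive and 8.72, 9.64 and 8.00 ligated, where the spread of the naive libraries covered most of the ligated ones (log2 0.35). WT naive replicate 3 was the library at 3.97 RPKM, and the log2 fold change was 0.0685 without it and 0.66 without WT naive replicate 1.

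Ifi211 was the exception among the 8. It did not move in a common direction with the thread, at log2 -0.30 (SE 0.38) in WT and 0.24 (SE 0.38) in CybbKO. Its 3 WT ligated libraries read 1.35, 2.65 and 5.38 RPKM, a coefficient of variation of 65.7%, against 3.89, 3.95 and 3.70 RPKM and 3.46% in WT naive tissue. Ifi205, with which it shares most sequence, followed it: 0.644, 0.764 and 1.32 RPKM in WT ligated and 1.31, 1.46 and 1.38 in WT naive libraries. When the reads of both were counted as 1 gene, an alternative chosen after the data were seen, the log2 fold change was -0.43 in WT and 0.34 in CybbKO, and the number of members called in each comparison stayed the same.

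In all, 3 of the 8 had every ligated library above every naive one in WT (13.3% of all tested genes did) and 6 of the 8 in CybbKO (18.5% of all tested genes). None of the 5 other family genes was called in either comparison. Ifi206, with 1 to 12 reads in naive libraries, was 24 to 38 reads in CybbKO ligated ones (log2 1.94, SE 0.60, adjusted p = 0.0554 by edgeR, 0.0396 by DESeq2).

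**Figure D2:**
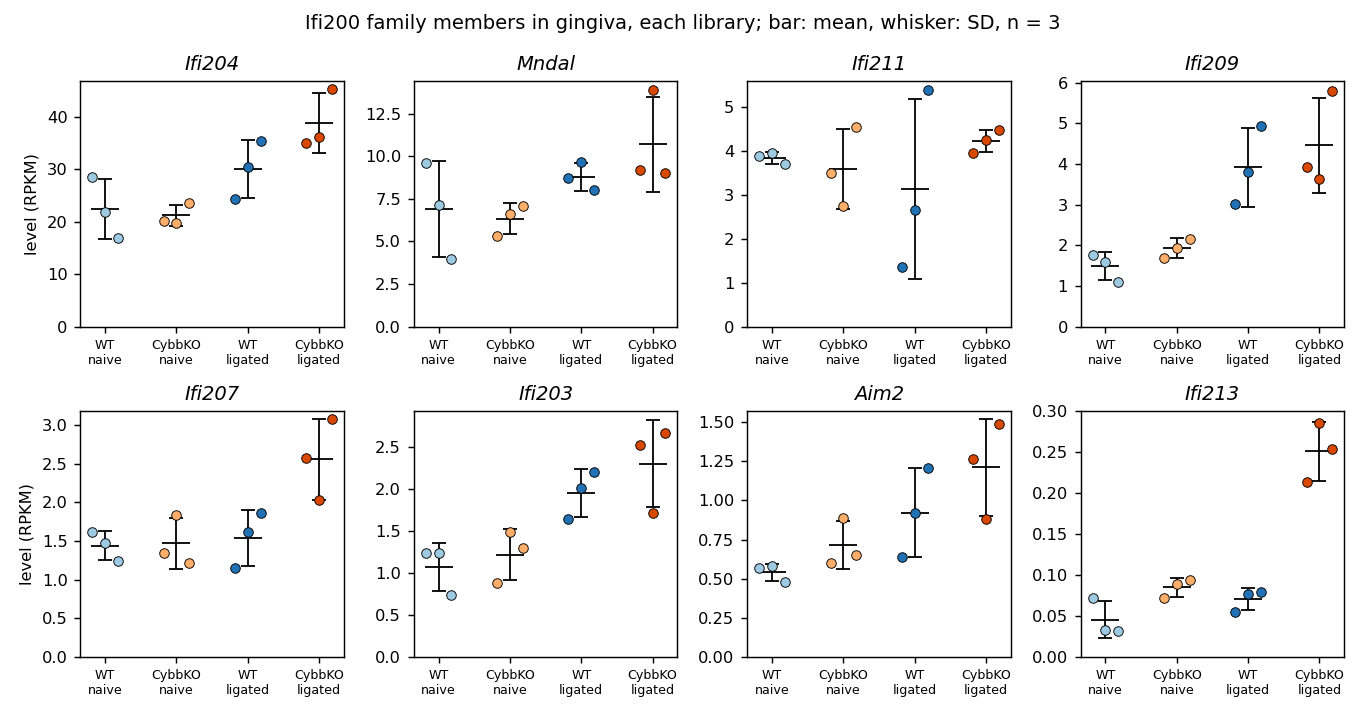
Level (RPKM, linear axis from 0) of each of the 8 members in every library, by group; points are libraries, bars the mean and whiskers the SD, n = 3. Ifi209 is higher in ligated than in naive libraries of both genotypes, Ifi213 is highest in the 3 CybbKO ligated libraries, at 0.214 to 0.285 RPKM, and Ifi211 spreads from 1.35 to 5.38 RPKM in WT ligated tissue.

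Between genotypes in ligated tissue, 0 of the 8 were called by edgeR (0.00665% of all genes, 1 of 15046, was called), 2 fell under 0.05 before adjustment (503 of all genes did), and 1, Ifi213, was called by DESeq2. All 8 had a higher mean in the libraries labelled CybbKO, with a median log2 fold change of 0.38 against 0.01 over all tested genes. That median was 0.20 without WT ligated replicate 1. In 2 of the 8, Ifi213 and Ifi207, every CybbKO library was above every WT library, as in 753 of the 15046 tested genes (5.0%).

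Ifi213 had the largest difference of the 8, at 0.0546, 0.0765 and 0.0797 RPKM in WT ligated and 0.214, 0.285 and 0.253 in CybbKO ligated libraries, or 3.56-fold. Its log2 fold change of 1.83 (SE 0.34) had an adjusted p of 0.644 by edgeR and 0.0191 by DESeq2, which called 13 genes higher in all (0.0864%). It stayed between 1.66 and 1.93 when any 1 of the 6 libraries was left out. Ifi207, at 1.15, 1.62 and 1.86 RPKM against 2.57, 2.03 and 3.08, was 1.66-fold higher (log2 0.73, SE 0.24, unadjusted p = 0.0112, adjusted p = 1.0 by edgeR).

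The other 6 overlapped between genotypes, with log2 fold changes from 0.19 (Ifi209) to 0.43 (Ifi211). Ifi204 lay near the edge of overlap, with WT ligated replicate 3 just above CybbKO ligated replicate 1 (log2 0.37, SE 0.19). The sign for Ifi209 turned to -0.05 without CybbKO ligated replicate 3, and Ifi211 rested on WT ligated replicate 1, without which its log2 fold change was 0.05. Leaving out each library in turn gave 0.05 to 1.08 for Ifi211, 0.05 to 0.39 for Mndal and 0.17 to 0.64 for Aim2. It gave 0.11 to 0.41 for Ifi203 and 0.22 to 0.50 for Ifi204. Of the other family genes, Ifi205 was higher in every CybbKO library (log2 0.82, SE 0.27, unadjusted p = 0.00967) and so was Ifi206 (log2 1.12, SE 0.56); neither was called.

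In naive tissue 0 of the 8 were called (0.00665% of all genes), with 1 unadjusted p under 0.05 (306 of all genes) and 0 calls by DESeq2, which called 0.0133% of all genes higher. Of the 8, 5 had a higher mean in CybbKO and 3 a lower one, at a median log2 fold change of 0.11 against 0.00 over all tested genes. That median lay close to 0 and moved with single libraries, to 0.24, 0.17 and -0.05 when WT replicate 1, 2 or 3 was left out, and to 0.23 and 0.04 when CybbKO replicate 1 or 2 was. Ifi213 and Aim2 had every CybbKO library above every WT library, as did 2.08% of all genes. For Ifi213 the margin was 0.0717 against 0.0712 RPKM (log2 0.89, SE 0.37), and for Aim2 it was 0.602 against 0.578 RPKM (log2 0.40, SE 0.29). The log2 fold change of Ifi213 was 1.38 with WT replicate 1 left out, and that of Aim2 was 0.21 with CybbKO replicate 2 left out.

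The difference between the 2 genotype effects, ligated minus naive, passed the test for 0 of the 8 and for 0 of all 15046 genes, by edgeR and by DESeq2. At an unadjusted p under 0.05 edgeR gave 342 genes, none of them a member, and DESeq2 gave 410. The number of members under 0.05 was 3 without WT naive replicate 3 (345 of all genes), 2 without WT ligated replicate 3 (516), and 1 without CybbKO ligated replicate 2 (986) or CybbKO naive replicate 2 (235), with no member called in any of these fits. The differences ran from -0.19 (Ifi209, SE 0.35) to 0.94 (Ifi213, SE 0.50), with 6 of the 8 above 0. That of Ifi213 was 0.45 without WT naive replicate 1. Their median of 0.43 was 0.17 without WT naive replicate 1, 0.22 without WT ligated replicate 1 and 0.59 without WT naive replicate 3. So the 4 calls in CybbKO against 1 in WT do not by themselves show a different response to the thread.

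**Figure D3:**
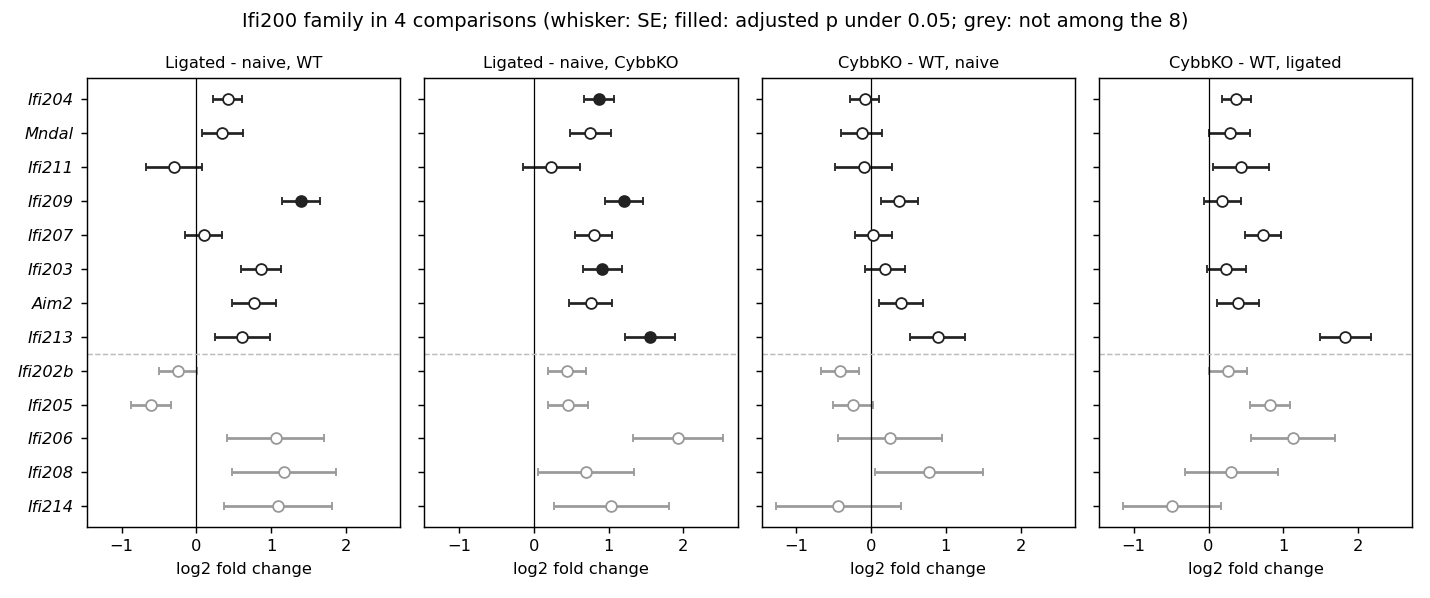
Log2 fold change with SE (whiskers) of 13 family genes in the 4 comparisons of the joint edgeR fit; dark points are the 8 members, grey points other family genes, filled points have an adjusted p under 0.05. Ifi209 is filled in both ligature panels, Ifi213, Ifi203 and Ifi204 in the CybbKO ligature panel, and no point is filled between genotypes.

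Within groups the members varied together in part. For each gene, deviations of log2 CPM from its group mean were correlated over the 12 libraries. These correlations share libraries and depth and are given as a description. Over the 28 pairs of members the median Pearson's r was 0.57, with 26 above 0. Aim2 and Ifi207 were closest (r = 0.95), then Ifi204 and Ifi209 (r = 0.92), and Aim2 with Ifi203 reached 0.80. Mndal varied less with the others, at -0.08 with Aim2, -0.02 with Ifi211 and 0.04 with Ifi207, though at 0.51 with Ifi204 and 0.70 with Ifi213, and was closest to Ifi206 (0.82), as was Ifi213 (0.86). Ifi211 and Ifi205, whose transcripts share sequence, had r = 0.87. Mndal and Ifi203, whose 60-base stretches around the ISRE core are the same, had r = 0.37, and Ifi213 and Ifi208, also the same there, had r = -0.06. Ifi206, which matches each of Ifi213 and Ifi208 there in 59 bases, had r = 0.86 with Ifi213 and 0.06 with Ifi208. Reads per library were 6 to 76 for Ifi213, 2 to 34 for Ifi208 and 1 to 38 for Ifi206, so counting error adds to the scatter of these pairs.

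**Figure D4:**
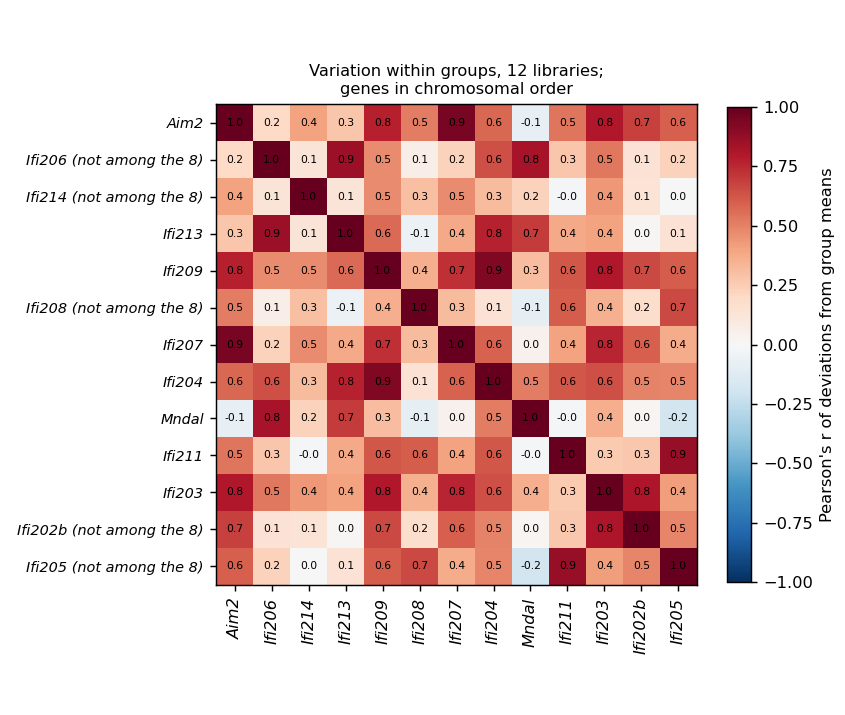
Pearson's r between family genes for deviations of log2 CPM from the group mean over 12 libraries, genes in chromosomal order on both axes, colour and number giving r. Mndal pairs with Ifi206 and Ifi213 and is near 0 with Aim2, Ifi207 and Ifi211, while Aim2, Ifi209, Ifi207, Ifi204 and Ifi203 are above 0.5 with one another.

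Against the mean of the 8, each scaled, the genes most alike over 12 libraries were Slfn2 (r = 0.97), Slfn8, Il18rap, Trim12c, Cxcl2, Ms4a4c, Draxin, Trim30a, Aif1 and Cytip (r = 0.95). Slfn2 and Slfn8 belong to the Schlafen family, and Aif1 is a macrophage gene. For deviations from the group means the 10 most alike were Tnip3 (r = 0.95), Pold3, Trim30a, Ms4a4d, Dcbld1, Rnd3, Pfdn4, Dnajb6, Samd9l and Paics (r = 0.92), so Trim30a was in both sets of 10.

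The partners of Aim2 were far more abundant per length than Aim2. Pycard stood at 51.3 to 77.1 RPKM and Casp1, which encodes caspase-1, at 77.7 to 151.9 RPKM over all libraries. In WT naive tissue the level of Casp1 was between 183 and 258 times that of Aim2, and in CybbKO ligated tissue between 60.7 and 95.2 times. Of 14 inflammasome genes, 5 were called higher and 1 lower with the thread in CybbKO (9.95% of all genes were called higher, and 457 of 15046 lower), and 0 in WT or between genotypes. The gene that fell was Casp1 itself (log2 -0.69, SE 0.18, adjusted p = 0.0280 by edgeR), in all 3 CybbKO ligated libraries. Those that rose were Il1b (log2 2.71, SE 0.53), Nlrp3 (2.37, SE 0.44), Mefv (3.12, SE 0.49), Gsdmd (1.20, SE 0.22), whose product forms the pyroptotic pore, and Casp4 (0.97, SE 0.26). In WT all of these genes changed in the same direction without a call. The log2 fold changes there were 1.82 (SE 0.51) for Il1b, 1.29 (SE 0.44) for Nlrp3 and 1.20 (SE 0.47) for Mefv. They were 0.45 (SE 0.22) for Gsdmd, 0.46 (SE 0.26) for Casp4 and -0.55 (SE 0.18) for Casp1.

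On the STING side, 2 of 14 tested genes of cytosolic DNA sensing were called higher with the thread in CybbKO, near the 9.95% of all genes, and 0 in WT or between genotypes. Tmem173, which encodes STING, was 1.21, 1.13 and 1.60 RPKM in CybbKO naive and 5.40, 3.47 and 5.59 in CybbKO ligated libraries, with no overlap (log2 1.87, SE 0.29, adjusted p = 0.00279 by edgeR). Zbp1, a sensor of left-handed nucleic acid, was the other (log2 1.82, SE 0.55, adjusted p = 0.0485 by edgeR). In WT the log2 fold change was 1.12 for Tmem173 (SE 0.28, adjusted p = 0.0561 by edgeR) and 0.17 for Zbp1 (SE 0.55). For Tmem173 every WT ligated library was also above every WT naive one. Cgas, the enzyme that makes the STING ligand, was 2.50 to 6.32 RPKM in all libraries, well below Ifi204 at 17.0 to 45.4. Ifnb1, the interferon made downstream, had 0 reads in 11 of 12 libraries and 1 read in the other; 3 reads, the limit that a count of 0 allows, are 0.0684 to 0.109 CPM here.

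Of 15 tested interferon receptor and signalling genes, 5 were called higher in CybbKO with the thread: Ifnar1, Ifnar2, Irf1, Irf8 and Socs3. Among 19 type I interferon-stimulated genes the call was 1, Ddx58 (log2 0.76, SE 0.17), and among 15 interferon-gamma-stimulated genes 1, Ciita (1.06, SE 0.22). With 9.95% of all genes called higher, both counts of 1 lie below that share. In the WT ligature comparison and between genotypes none of these lists had a called gene. Before adjustment, however, 14 of the 15 interferon-gamma-stimulated genes fell under 0.05 in ligated CybbKO against WT tissue, as 503 of all 15046 genes did, among them the guanylate-binding protein gene Gbp5 (log2 2.16, SE 0.53) and the chemokine gene Cxcl9 (4.66, SE 1.47). Their summed level was 74.4 to 122 CPM in WT ligated libraries and 199.8, 229.1 and, highest, 615.5 CPM in CybbKO ligated ones. In naive tissue it was 64.1, 65.6 and 211.2 CPM in WT and 101.0, 130.1 and 265.3 CPM in CybbKO. Naive libraries of both genotypes thus reached into the CybbKO ligated range. The count under 0.05 between genotypes in ligated tissue was 4 of 19 for type I interferon-stimulated and 5 of 14 for inflammasome genes. It was 4 of 15 for interferon receptor and signalling and 4 of 14 for DNA sensing genes.

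Leukocyte markers moved with the same comparisons. In CybbKO with the thread 4 of 4 pan-leukocyte, 8 of 8 macrophage and monocyte and 8 of 8 neutrophil markers were called higher, and in WT 1, 2 and 1. Of all tested genes, 9.95% were called higher in CybbKO and 2.31% in WT, so the counts of the 2 genotypes stand beside unlike shares. Between genotypes in ligated tissue none was called, but 4 of 4, 4 of 8 and 6 of 8 of them had an unadjusted p under 0.05, as 503 of all 15046 genes did. The summed pan-leukocyte level was 36.0 to 43.2 CPM in WT naive, 29.8 to 47.2 in CybbKO naive, 54.1 to 89.9 in WT ligated and 97.0 to 152 in CybbKO ligated libraries. The macrophage and monocyte sum was 63.2 to 71.3, 52.5 to 61.4, 94.3 to 138 and 139 to 195 CPM in the same order. The neutrophil sum was 371 to 843, 818 to 924, 1341 to 3769 and 2491 to 11640 CPM. It overlapped between genotypes in ligated tissue where the other 2 sums did not. S100a8 and S100a9 stood far above the rest of its 8 markers, at means of 1514 and 2713 RPKM in WT ligated tissue. Mmp9 came next, at 15.8 RPKM. Every CybbKO ligated library was above every WT ligated one for 3 of the 8 neutrophil markers, Csf3r, Cxcr2 and Mmp8. That held for 3 of 8 macrophage and monocyte and 3 of 4 pan-leukocyte markers, and for 753 of all 15046 genes. None of these 20 markers was at 0 in every library of a group. Endothelial (5 of 5) and fibroblast (5 of 6) markers were also called higher in CybbKO, and 3 and 2 of them in WT, beside the same shares of all genes. The part of these cells in the differences of the Ifi200 genes was not tested, and in whole gingiva more cells that express a gene and more RNA per cell cannot be told apart.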

How the data were processed

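The deposited table holds raw counts per Ensembl gene, which the authors made by aligning reads of a stranded poly(A) library with STAR to GRCm38 (Ensembl annotation). The study's methods name featureCounts with reverse strand, whereas the submitters' processing notes name HTSeq 0.10.0, and these sources leave the counter undecided. Of 21965 genes, 21939 matched GENCODE M21, which gave symbols, exon lengths and positions.

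Counts were filtered with filterByExpr (15046 genes kept), scaled by TMM and fitted jointly over 12 libraries, 1 mean per group, with edgeR 4.0.16 (quasi-likelihood F test, R 4.3.3). P-values were Benjamini-Hochberg adjusted over all tested genes, and called means under 0.05. The test was tried on simulated counts with 200 changed genes. DESeq2 1.42.0, other scalings and filters, 6-library fits, a replicate block and leaving out each library were alternatives. The design names 3 mice per group, matched by age and sex, so each library was taken as 1 mouse. The limit given for a count of 0 covers counting error only.

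The members and gene lists were chosen with earlier results of these data known. Named are all members, other family genes with an entry, called or abundant genes of each list, and the 10 genes most correlated with the members. Marker lists for T and NK, B and plasma and plasmacytoid dendritic cells were also counted: with the thread in CybbKO, 1 of 5, 0 of 4 and 1 of 4 tested genes were called higher, and 2 B and plasma genes lower. Of 7 epithelial markers 1 was called lower there. In that comparison 9.95% of all genes were called higher and 457 of 15046 lower.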

Additional observations from a re-analysis of the deposited data

How the results depend on the processing

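By DESeq2, on 12 libraries or on the 6 compared, 1 member was called between genotypes in ligated tissue (0 by edgeR) and 2 with the thread in WT (1 by edgeR). DESeq2 on 12 libraries called 1375 genes with the thread in WT, against 481 by edgeR, and 14 against 1 between genotypes in ligated tissue. Leaving out each library in turn gave 0 to 1 members called in WT and 1 to 6 in CybbKO with the thread, and 0 to 0 in the other comparisons, while the genes called ran from 27 to 737 in WT and from 837 to 2949 in CybbKO. The median of the members ran from -0.0472 to 0.24 between genotypes in naive tissue, 0.20 to 0.57 in ligated tissue, 0.34 to 0.73 with the thread in WT, 0.74 to 0.97 in CybbKO and 0.17 to 0.59 for the difference of genotype effects. The sign turned for log2 fold changes near 0: in naive tissue between genotypes Ifi203 (-0.0238 to 0.37), Ifi204 (-0.25 to 0.12), Ifi207 (-0.17 to 0.15), Ifi211 (-0.30 to 0.0629) and Mndal (-0.40 to 0.19), in ligated tissue Ifi209 (-0.0532 to 0.39), with the thread in WT Ifi207 (-0.0594 to 0.31) and Ifi211 (-0.94 to 0.10), and in the difference of genotype effects Ifi203 (-0.13 to 0.26), Ifi209 (-0.43 to 0.0073) and Aim2 (-0.23 to 0.24). Deviations of same-numbered libraries of different groups had r from -0.23 to 0.28. Differently numbered libraries were not compared, so this does not settle whether the numbers pair libraries. With a replicate block 3 members were called with the thread in CybbKO (Ifi203 lost, adjusted p = 0.0712 by edgeR), 1 in WT and 0 between genotypes, with 1573 genes called in CybbKO and 271 in WT, and the difference for Aim2 turned from -0.0066 to 0.0241. A minimum of 10 counts in every library left 7 members, without Ifi213. The cause of these shifts was not tested. At 3 libraries a group and a common coefficient of biological variation of 0.24, small effects had wide errors, such as log2 0.37 with SE 0.19 for Ifi204 between genotypes in ligated tissue.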

Other observations

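The genes on either side of the cluster were looked at for the same comparisons. On the left, Ackr1, an endothelial and red-cell chemokine receptor, rose with the thread in CybbKO (log2 1.67, adjusted p = 0.00464 by edgeR) and had log2 1.13 in WT (adjusted p = 0.0590 by edgeR). Cadm3, which overlaps Aim2 on the other strand, had log2 0.61 in CybbKO (adjusted p = 0.103 by edgeR) and 0.10 in WT. Fcer1a, the other tested gene on the left, with 2 to 23 reads, had log2 -0.18 in CybbKO and 1.02 in WT and was not called. On the right lie olfactory receptor genes with at most 5 reads in any library.

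Ifi202b, per length the most abundant family gene, took between 63.9% and 72.6% of the summed level of the 13 genes in WT naive libraries, 55.6% to 59.7% in WT ligated, 62.1% to 62.7% in CybbKO naive and 44.0% to 63.6% in CybbKO ligated ones. Its 3 CybbKO ligated libraries read 106.2, 50.8 and 99.5 RPKM, and in the replicate at 50.8 RPKM Mndal was at its highest, 13.9 RPKM, and Ifi213 too, at 0.285 RPKM.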
